A study of Rattus norvegicus with 111 samples.

Results

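The 5 genes described here encode mitochondrial enzymes of fatty acid β-oxidation. The acyl-CoA dehydrogenases Acadm (ENSRNOG00000009845), Acadl (ENSRNOG00000012966) and Acadvl (ENSRNOG00000018114) carry out its first step, for medium to very long chains. The trifunctional protein, with subunits Hadha (ENSRNOG00000024629) and Hadhb (ENSRNOG00000010800), carries out the later steps for long chains. The 5 genes were chosen by identifier out of the 20311 genes in each of the deposited count tables. The series exposed pregnant Sprague-Dawley Crl:CD(SD) rats, 11 to 12 weeks old at purchase, by mouth from gestational day 18 to 22 to a perfluoroalkyl ether carboxylic acid, PFO5DoA or its shorter homologue PFO4DA, and profiled maternal and fetal liver. All dams, controls included, received the vehicle 0.5% Tween-80, and livers were taken 2 to 4 h after the last dose. The PFO5DoA groups held 5 dams on vehicle, 2 at 0.1, 3 at 0.3, 3 at 1, 4 at 3, 4 at 10 and 4 at 30 mg/kg/d, with 1 fetal library fewer at 30 mg/kg/d. The PFO4DA groups held 6 dams on vehicle and 4 each at 0.3, 1, 3, 10, 30 and 62.5 mg/kg/d. Per the labels, PFO5DoA at 62.5 mg/kg/d was acutely toxic and those dams were not analysed. The dams on 30 mg/kg/d PFO5DoA ended about 17% lighter than controls, and fetotoxicity was noted in 1 of them. Doses are given below by their number of mg/kg/d, as in dose 10.

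β-Oxidation shortens a fatty acyl-CoA in repeated rounds inside the mitochondrion. An acyl-CoA dehydrogenase opens each round, with Acadvl acting on very long, Acadl on long and Acadm on medium chains, and for long chains the trifunctional protein then carries out the remaining steps. Its α subunit, encoded by Hadha, holds the hydratase and 3-hydroxyacyl-CoA dehydrogenase activities, and its β subunit, encoded by Hadhb, holds the thiolase. The nuclear receptor PPARα is known to control many fatty acid oxidation genes in liver, and the pathway becomes important around birth, when milk fat replaces glucose as the main fuel.

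Of 111 libraries from 56 dams, 109 from 55 dams were used: 55 maternal and 54 fetal. The column names gave the dam and not the tissue, so the life stage of a column was assigned from expression. Within each dam, the column whose log2(CPM + 1) values correlated better with the single, maternal, library of dam 2286 was taken as maternal. Maternal columns had Pearson r of 0.943 to 0.988 and fetal columns 0.861 to 0.923, and the smallest gap within a dam was 0.0524. Because expression made this assignment, maternal and fetal levels are compared below as a description only. Dam 2279 was not used, since one of its columns summed to only 45505 counts. The libraries used held 7132999 to 15254939 counts. Acadvl was the member with the fewest reads, at 72 to 532 per library. TempO-Seq counts reads from short detector probes, so the counts of different genes do not give their relative amounts of RNA. In bulk liver, fewer cells of a type and less RNA per cell cannot be told apart. Cell type markers and other pathway genes were not used here, since the tables hold identifiers that the reference tables at hand did not pair with names.

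RefSeq (build GRCr8) promoter windows, reaching from 250 bases before to 50 after the annotated start, were found for 4 of the 5 members, all but Acadl. The 3 windows shown are those of the head-to-head pair Hadha and Hadhb and of Acadvl, the member with the smallest maternal response. All run 5′ to 3′ on the gene's own strand. Capitals mark AGGTCA, the core hexamer of nuclear receptor elements, on either strand, and the direct repeat of that hexamer with 1 base between.
Hadha promoter, chr6:31907551-31907850, plus strand: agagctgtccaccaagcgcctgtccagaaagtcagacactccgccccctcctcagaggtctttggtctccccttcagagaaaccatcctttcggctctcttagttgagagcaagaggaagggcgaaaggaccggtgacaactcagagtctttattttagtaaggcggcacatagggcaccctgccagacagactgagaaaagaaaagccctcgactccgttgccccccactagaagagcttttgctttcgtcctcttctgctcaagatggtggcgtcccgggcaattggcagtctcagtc
Hadhb promoter, chr6:31907451-31907750, minus strand: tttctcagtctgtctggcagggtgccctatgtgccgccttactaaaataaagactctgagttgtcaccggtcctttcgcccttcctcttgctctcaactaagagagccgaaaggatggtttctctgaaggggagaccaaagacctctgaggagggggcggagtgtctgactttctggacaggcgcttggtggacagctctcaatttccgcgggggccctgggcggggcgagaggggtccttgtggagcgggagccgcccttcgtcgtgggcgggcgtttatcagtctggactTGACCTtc
Acadvl promoter, chr10:55236656-55236955, minus strand: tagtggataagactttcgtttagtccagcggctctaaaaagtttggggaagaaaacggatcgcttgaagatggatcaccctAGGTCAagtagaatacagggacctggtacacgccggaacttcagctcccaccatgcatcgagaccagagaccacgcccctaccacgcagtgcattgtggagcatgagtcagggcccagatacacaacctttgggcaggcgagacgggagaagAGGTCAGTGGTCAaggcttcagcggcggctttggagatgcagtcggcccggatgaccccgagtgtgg

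The starts of Hadha and Hadhb lay 301 bases apart on opposite strands, and their windows shared 200 bases. The Acadvl window held the hexamer AGGTCA starting at positions -169 and -17 from the start, and at -17 also the direct repeat with 1 mismatch over its 12 fixed letters (AGGTCAGTGGTCA, overlapping the hexamer). The Hadhb window held 1 hexamer on the opposite strand (TGACCT) at position 43, and the windows of Hadha and Acadm (chr2:245542815-245543114, minus strand) held no match. Both strands were searched, with at most 2 mismatches allowed for the repeat. Of all 33469 windows of this length, 16.18% held a hexamer and 3.77% the repeat. A match describes letters in the window and not a bound site.

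In vehicle controls the trifunctional protein genes had lower maternal than fetal levels. With both life stages scaled together, the maternal level of Hadhb was 0.283 times the fetal one in the PFO5DoA controls and 0.302 times in the PFO4DA controls. Hadha was at 0.625 and 0.535 times the fetal level. All levels below are scaled within each life stage, so maternal and fetal CPM do not share a common scale. Scaled in this way, Hadhb was at 90.3 ± 10.8 CPM (SD, n = 5) in maternal and 413 ± 87.0 CPM (SD, n = 5) in fetal PFO5DoA controls. Acadm and Acadl lay nearer to parity. Scaled together, their maternal levels were 1.49 and 1.46 times the fetal ones in the PFO5DoA controls and 1.39 and 1.36 times in the PFO4DA controls. Scaled within the life stage, Acadm stood at 307 ± 30.4 against 287 ± 131 CPM in the PFO5DoA controls (SD, n = 5 each). Acadl in the PFO4DA controls stood at 698 ± 101 against 702 ± 203 CPM (SD, n = 6 each), where the order of the means was the other way round. How far the separate scaling sets that order was not tested. Acadvl was at 1.27 times the fetal level in one set of controls and 0.965 times in the other.

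**Figure D1:**
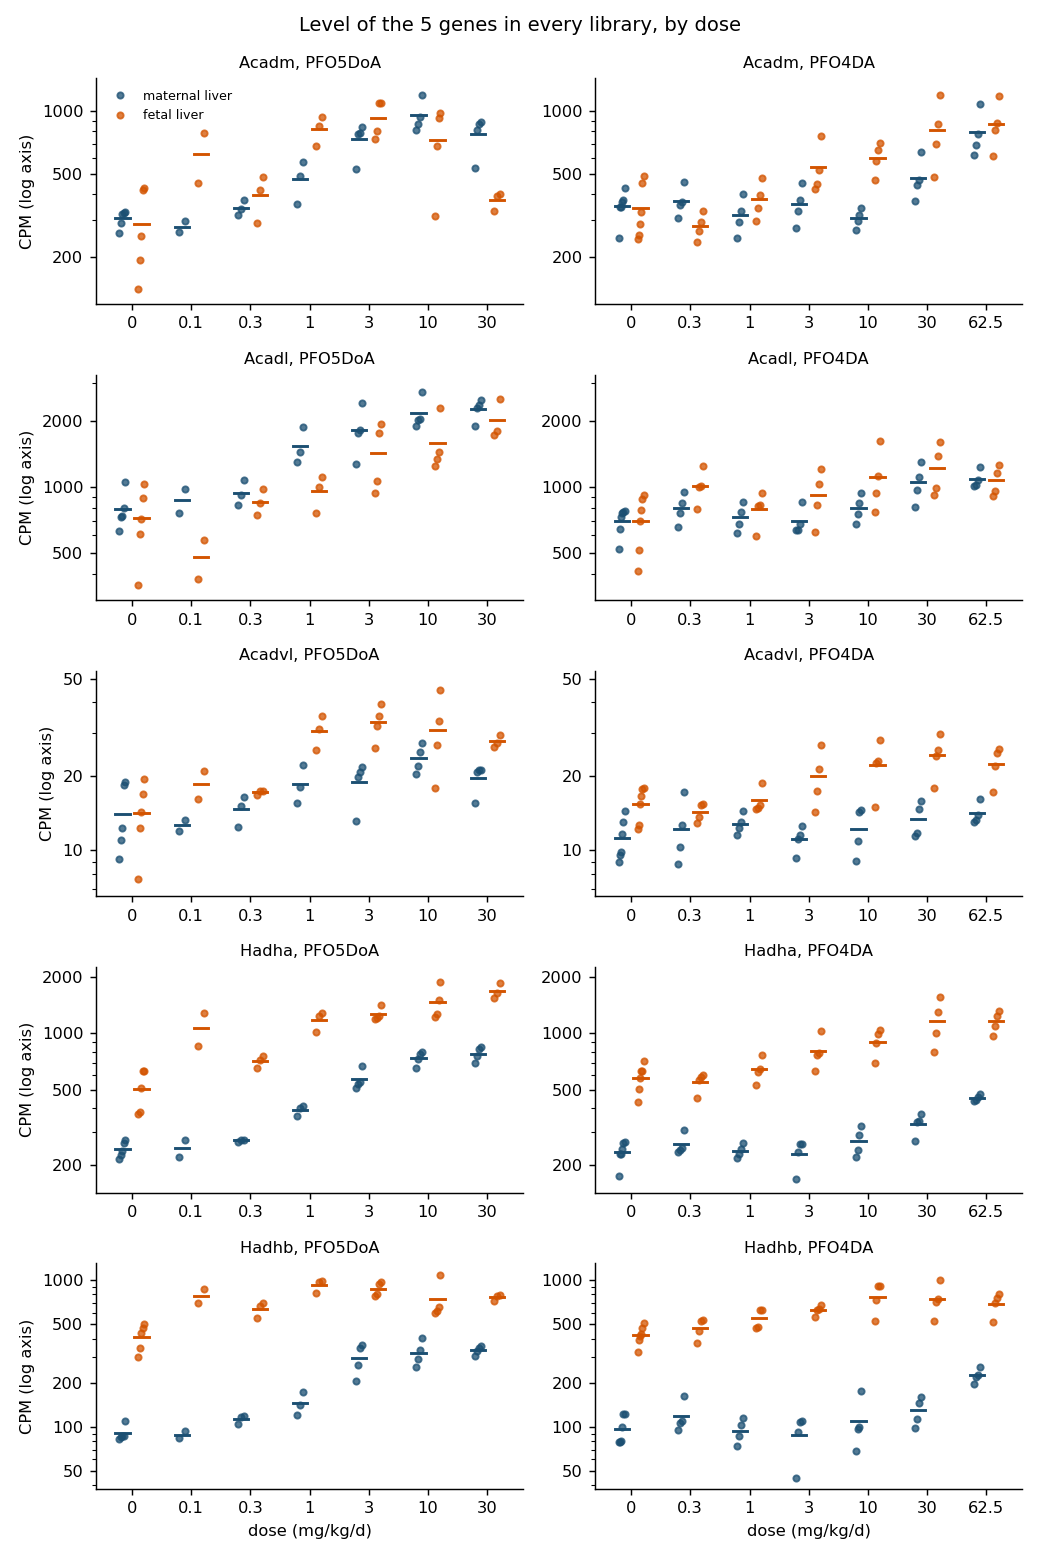
CPM (log axis) of each gene in every library against dose in mg/kg/d, for PFO5DoA (left) and PFO4DA (right); points are libraries, bars are group means, blue is maternal and orange fetal liver, and CPM is scaled within each chemical and life stage. Maternal Hadhb on PFO5DoA goes from 82.5 to 109 CPM in controls to 302 to 359 at 30 mg/kg/d, and the fetal Acadm libraries at 30 mg/kg/d fall back among their controls.

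In maternal liver, PFO5DoA raised both subunits of the trifunctional protein by 2.36- to 3.70-fold from dose 3 up. Maternal Hadhb was at 82.5, 86.0, 86.5, 87.3 and 109 CPM in the controls, at 204, 266, 345 and 361 at dose 3, at 255, 291, 336 and 401 at dose 10, and at 302, 327, 344 and 359 at dose 30. The dosed and control libraries did not overlap at any of these doses, and the 3 dose groups overlapped one another. Here and below, overlap with controls was read for the members alone. The share of all genes that separate from their controls was not counted. The log2 fold change of Hadhb was 1.71 ± 0.17 (SE) at dose 3 (edgeR adjusted p = 1.6e-07), 1.84 ± 0.17 at dose 10 (adjusted p = 2.0e-08) and 1.89 ± 0.17 at dose 30 (adjusted p = 7.1e-09). Hadha followed at higher CPM: its controls lay between 216 and 271 CPM, the 4 libraries at dose 3 between 516 and 672, those at dose 10 between 656 and 797, and those at dose 30 between 698 and 851. Its log2 fold change was 1.24 ± 0.14, 1.62 ± 0.14 and 1.70 ± 0.14 at the 3 doses, with adjusted p of 9.3e-07, 4.8e-09 and 1.0e-09. Every dosed library of Hadha from dose 1 up lay above every control.

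Among the maternal dehydrogenases, Acadm and Acadl rose with PFO5DoA by 2.32- to 3.15-fold from dose 3 up, and Acadvl moved less. Maternal Acadm was at 260, 292, 324, 327 and 331 CPM in the controls, at 532, 777, 788 and 842 at dose 3, at 814, 870.4, 939.8 and 1196 at dose 10, and at 537, 817, 869 and 889 at dose 30. All 12 of these dosed libraries were above the controls, and the highest values were at dose 10. Its log2 fold change was 1.27 ± 0.18 (SE) at 3, 1.65 ± 0.18 at 10 and 1.35 ± 0.18 at dose 30 (edgeR adjusted p = 5.5e-05, 4.4e-07 and 3.3e-06). Maternal Acadl controls lay between 629 and 1056 CPM, and its libraries at dose 30 were at 1903, 2303, 2383 and 2513. The log2 fold change of Acadl was 1.22 ± 0.20, 1.48 ± 0.20 and 1.53 ± 0.20 at doses 3, 10 and 30 (adjusted p = 0.00027, 9.4e-06 and 1.9e-06). Acadvl, which starts oxidation of the longest chains, passed the test at dose 10 alone (0.77 ± 0.20, adjusted p = 0.0121). Maternal Acadvl was at 9.2, 11.1, 12.4, 18.5 and 19.01 CPM in the controls, 20.5, 22.06, 25.2 and 27.2 at dose 10, and 15.6, 20.9, 21.2 and 21.2 at dose 30. At dose 30 the lowest library, of dam 2288, fell within the control range, and the log2 fold change was 0.49 ± 0.20 (95% interval 0.08 to 0.91, adjusted p = 0.0547). That value was past the threshold without dam 2288 (0.58, adjusted p = 0.0395), without control replicate 2 or 3 (0.61 and 0.62, adjusted p = 0.0208 and 0.0189) or dose 3 replicate 4 (0.49, adjusted p = 0.0398), and with DESeq2 (0.51, adjusted p = 0.0377). With the dam run as a covariate it was 0.81 (edgeR adjusted p = 0.00275).

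Read against all 10529 genes tested, the maternal PFO5DoA counts were as follows, each for genes called higher at an edgeR adjusted p under 0.05. At dose 0.3 no member passed, with 0% of all genes, none of the 5 at an unadjusted p under 0.05, and none with DESeq2. At dose 1, 2 of 5 members rose, against 0.437% of genes: Acadl (0.97 ± 0.21 log2, adjusted p = 0.0276) and Hadha (0.71 ± 0.15, adjusted p = 0.0202). At dose 3 the count was 4 against 1.83%, at dose 10 it was 5 against 6.69%, and at dose 30 it was 4 against 19.5%. The median log2 fold change of the 5 members was 0.18, 0.69, 1.24, 1.62 and 1.53 from the lowest to the highest of these doses, while that of all genes stayed between -0.07 and -0.01. No member fell at any dose. All 3 libraries at dose 1 lay above every control for both genes, and also for Acadm and Hadhb, which were not called. The share of all genes that separate in this way was not counted. Leaving out any of 6 libraries ended the Acadl call, with log2 values from 0.80 to 1.01, and any of 5 ended the Hadha call, with values from 0.66 to 0.75. These were control replicates 1 and 6 and dose replicates 1 and 2 for both genes, control replicates 2 and 4 for Acadl, and dose replicate 3 for Hadha. No member passed at this dose within the first dam run or with each dose set against its controls alone.

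**Figure D2:**
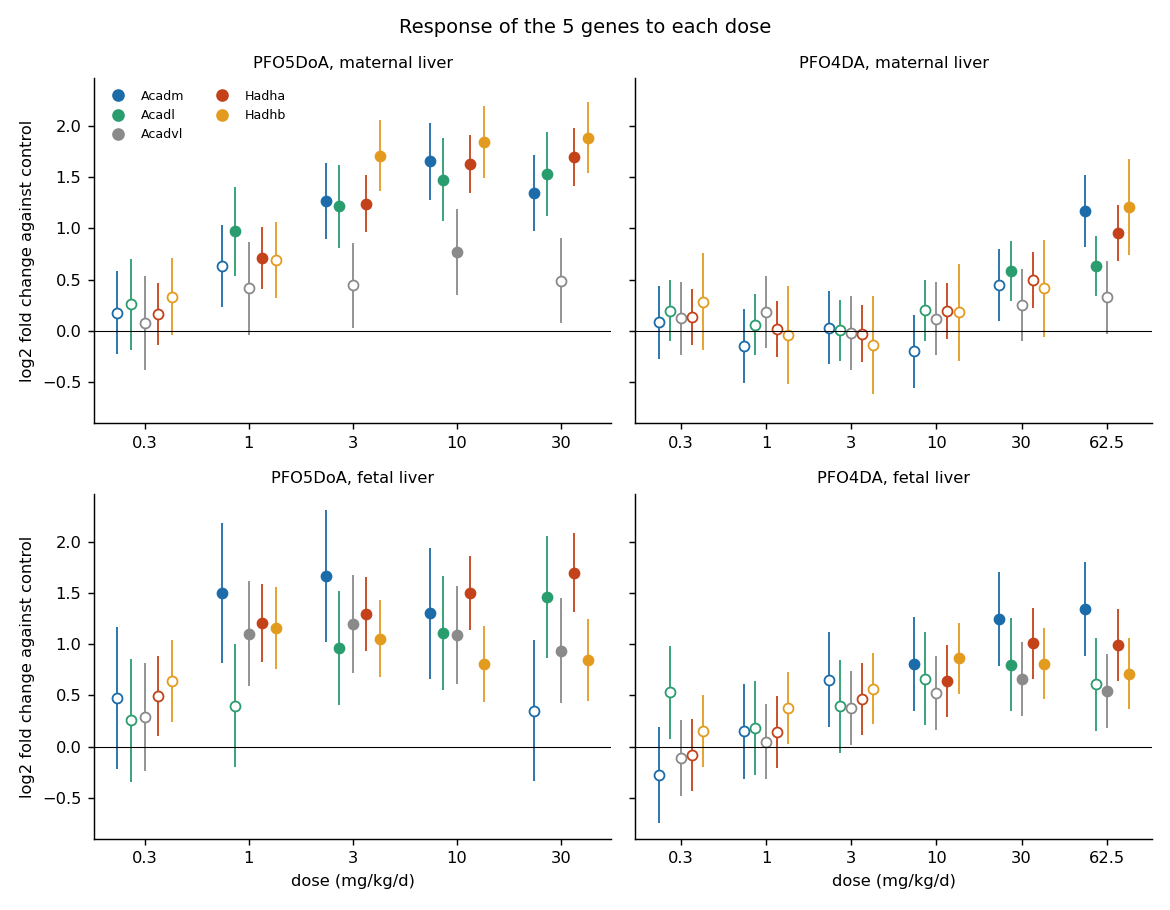
Log2 fold change against vehicle control for the 5 genes at each dose (mg/kg/d) in the 4 combinations of chemical and liver; points are edgeR estimates, vertical lines 95% intervals, and filled points have an adjusted p under 0.05. All filled points lie above 0, and the fetal PFO5DoA panel shows Acadm at 0.35 and Hadha at 1.70 at 30 mg/kg/d.

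In fetal liver PFO5DoA raised Acadm, Acadvl, Hadha and Hadhb at dose 1 and all 5 genes at doses 3 and 10, but the dose pattern differed from gene to gene. Hadha had its highest group mean at dose 30 and its highest single library, of dam 2283, at dose 10. Its fetal libraries were at 373, 383, 514, 629 and 631 CPM in the controls, 1022, 1233 and 1281 at dose 1, 1187, 1210.3, 1235 and 1418 at dose 3, 1223, 1271, 1500.3 and 1877 at dose 10, and 1552, 1639 and 1854 at dose 30. Controls and dosed libraries did not overlap, and the log2 fold change went from 1.21 ± 0.18 (SE) at dose 1 to 1.70 ± 0.18 at dose 30 (edgeR adjusted p = 0.000387 and 5.7e-07). Hadhb, its partner subunit, had its highest group mean at dose 1 instead, with a limit from the dam runs given below. Fetal Hadhb was at 299, 348, 439, 474 and 506 CPM in the controls, at 819.6, 975 and 995 at dose 1, at 599, 621, 655 and 1084 at dose 10, and at 718, 775 and 795 at dose 30. All dosed libraries again exceeded the controls, and 1 library at dose 10, of dam 2283, stood well above the other three. The log2 fold change of fetal Hadhb was 1.16 ± 0.19 at 1, 1.05 ± 0.18 at 3, 0.80 ± 0.18 at 10 and 0.85 ± 0.19 at dose 30 (adjusted p = 0.000923, 0.000488, 0.00346 and 0.00197).

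Against the controls of both dam runs, the fetal dehydrogenases took 3 different courses. Acadl was the last to pass the test, with a limit from the dam runs given below. Its log2 fold change was 0.40 ± 0.29 (SE) at dose 1 (95% interval -0.20 to 1.00, edgeR adjusted p = 0.484), 0.96 ± 0.27 at 3, 1.11 ± 0.27 at 10 and 1.46 ± 0.29 at dose 30 (adjusted p = 0.030, 0.00647 and 0.000524). Fetal Acadl controls were at 357, 609, 715, 886 and 1034 CPM, and its dose 30 libraries at 1734, 1798 and 2536, all above them. Acadvl rose by 1.10 ± 0.25, 1.20 ± 0.23, 1.09 ± 0.23 and 0.93 ± 0.25 at the same 4 doses (adjusted p = 0.0165, 0.00169, 0.00222 and 0.00648). Its fetal controls lay between 7.7 and 19.5 CPM, and its libraries at dose 30 were at 26.2, 27.4 and 29.6.

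Fetal Acadm, which acts on medium chains, was high at doses 1 to 10 and overlapped the controls at dose 30. It was at 141, 195, 252, 419 and 429 CPM in the controls, at 681, 847 and 933 at dose 1, at 733, 804, 1093 and 1098 at dose 3, at 314, 682, 932 and 978 at dose 10, and at 334, 393 and 403 at dose 30. The lowest library at dose 10, of dam 2284, and all 3 at dose 30 lay within the control range. Its log2 fold change was 1.50 ± 0.33 (SE) at 1, 1.67 ± 0.31 at 3 and 1.30 ± 0.31 at dose 10 (edgeR adjusted p = 0.0144, 0.00131 and 0.00567), and 0.35 ± 0.33 at dose 30 (95% interval -0.34 to 1.04, adjusted p = 0.457). A direct test of 30 against 10 mg/kg/d, chosen after the values were seen, gave -0.95 ± 0.36 (adjusted p = 0.147), so the step down was not past the threshold. The value at dose 30 moved with the dam run. Dams carry consecutive identifiers in 2 runs for each chemical, each opening with controls, and all dose 30 dams belong to the second, as do the control libraries at 141 and 195 CPM. Within the second run alone the log2 fold change of fetal Acadm was 1.17 ± 0.40 at dose 30 (adjusted p = 0.0746), against 2.20 ± 0.44 at 3 and 1.88 ± 0.43 at dose 10, and with dam run as a covariate it was 0.86 ± 0.31 (adjusted p = 0.0435). The lower fetal controls of Hadha (373 and 383 CPM) and Hadhb (299 and 348 CPM) are also in the second run. All dose 1 dams belong to the first. Within the second run alone the fetal members at dose 30 lay between 1.08 and 2.16 log2, so Hadhb was above its 0.85 over both runs. Within the first run alone the fetal members lay between 0.76 and 1.15 at dose 1, against 1.16 for Hadhb and 0.40 for Acadl over both. Fetal Acadl controls went the other way, at 886 and 1034 CPM in the second run and 357, 609 and 715 in the first. Its dose 1 libraries were at 757, 998 and 1114.5 CPM, all above the controls of the first run. The labels do not call the runs batches, and their part in these results was not tested further.

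For fetal PFO5DoA liver, 11478 genes were tested. No member passed at dose 0.3 with edgeR, against 0.113% of genes called higher, although Hadha and Hadhb were at an unadjusted p under 0.05 (2 of 5); DESeq2 also called none. The counts were 4 of 5 against 1.79% at dose 1, 5 against 4.06% at 3, 5 against 7.22% at 10 and 4 against 14.5% at dose 30. Member medians were 0.47, 1.16, 1.20, 1.11 and 0.93 on the log2 scale over the 5 doses, and the median of all genes lay between -0.04 and -0.01. No fetal member fell. At dose 1 the Acadm and Acadvl calls were lost without dose replicate 2 (adjusted p = 0.0756 for Acadm and 0.0899 for Acadvl) and without dose replicate 3, with log2 values of 1.46 and 1.40 for Acadm and 1.08 and 1.00 for Acadvl. At dose 3 the Acadl call was lost without control replicate 1, 2 or 3 or dose replicate 1 or 4, with log2 values from 0.78 to 0.96.

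PFO4DA raised maternal members at the upper end of its dose range. At dose 62.5 maternal Hadhb was at 195, 219, 227 and 258 CPM, against a lowest control of 79.1, a median of 89.8 and a highest of 123, and Hadha was at 436, 445, 460.0 and 474 against controls from 176 to 265. Neither gene overlapped its controls at that dose. Hadhb rose by 1.21 ± 0.23 (SE) on the log2 scale (edgeR adjusted p = 0.00166) and Hadha by 0.96 ± 0.13 (adjusted p = 1.7e-05). Maternal Acadm, at 617, 691, 778 and 1085 CPM against controls from 248 to 428, rose by 1.17 ± 0.17 (adjusted p = 4.4e-05), and Acadl by 0.63 ± 0.14 (adjusted p = 0.0101), although without dose replicate 1 its adjusted p was 0.0635. Acadvl, at 13.1 to 16.2 CPM against controls from 9.0 to 14.5, overlapped them, and its log2 fold change was 0.33 ± 0.17 (95% interval -0.03 to 0.68, adjusted p = 0.396).

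At lower doses the maternal PFO4DA values stayed near the controls. With edgeR none of the 5 members passed at doses 0.3, 1, 3 or 10, where none had an unadjusted p under 0.05 and DESeq2 called none. Of the 10214 genes tested, 0% were called higher at each of the first 3 doses and 0.00979% at dose 10. The 95% intervals of the log2 fold changes over these doses reached from -0.61 to 0.76, both for Hadhb. At dose 30, 1 member rose, against 0.627% of genes: Acadl, with 808.5, 971, 1113 and 1305 CPM against controls from 518 to 774 (0.59 ± 0.14, adjusted p = 0.0467). That call was lost when any 1 of 20 libraries was left out, with log2 values from 0.47 to 0.62, and also with RLE scaling, without the filter on low counts and within either dam run. Hadha at the same dose was at 269, 337, 343 and 373.5 CPM, all above the controls, with 0.50 ± 0.13 (adjusted p = 0.0924). At dose 62.5 the count was 4 against 1.81%.

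In fetal liver PFO4DA raised members from dose 10 up. Acadm showed the largest fetal log2 fold changes at doses 30 and 62.5: its controls had a lowest value of 245, a median of 309 and a highest of 487 CPM, and its libraries were at 467, 577, 649.8 and 707 at dose 10, 486, 696, 869 and 1196 at dose 30 and 612, 813, 879 and 1177 at dose 62.5. Only the highest dose cleared all controls. The log2 fold change of Acadm was 0.81 ± 0.23 (SE), 1.24 ± 0.23 and 1.34 ± 0.23 at those doses (edgeR adjusted p = 0.0464, 0.000342 and 6.9e-05). Hadha libraries were at 430.0 to 714 CPM in the controls, at 794, 1011, 1308 and 1565 at dose 30 and at 974, 1098, 1241 and 1322 at dose 62.5, with no overlap. Its log2 fold change was 0.64 ± 0.17 at 10, 1.01 ± 0.17 at 30 and 0.99 ± 0.17 at dose 62.5 (adjusted p = 0.0357, 0.000147 and 9.6e-05). Hadhb rose by 0.86 ± 0.17, 0.81 ± 0.17 and 0.71 ± 0.17 (adjusted p = 0.00212, 0.00181 and 0.00416), and its libraries were above all controls from dose 3 up.

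At doses 30 and 62.5 fetal Acadl and Acadvl had the smallest log2 fold changes of the 5 members. Acadl passed the test at dose 30 (0.80 ± 0.22 log2, edgeR adjusted p = 0.0231), with 916, 985, 1381 and 1598 CPM against controls from 411 to 923, and was at 0.61 ± 0.22 at dose 62.5 (95% interval 0.16 to 1.06, adjusted p = 0.0769). Acadvl rose by 0.66 ± 0.18 at 30 and 0.54 ± 0.18 at dose 62.5 (adjusted p = 0.0170 and 0.0432), with 3 of 4 libraries above all controls at each of these doses. Of 11133 genes tested, 0% were called higher at 0.3 and at dose 1 and 0.323% at dose 3. No member passed there with edgeR or DESeq2, although 1, 1 and 4 of 5 had an unadjusted p under 0.05. The counts were 3 against 2.06% at dose 10, 5 against 3.6% at 30 and 4 against 4.93% at dose 62.5. At dose 10 the Acadm call was lost without any 1 of 17 libraries, with log2 values from 0.72 to 0.83, and the Hadha call without any 1 of 6, with values from 0.57 to 0.65. Neither run of dams alone called a member there. At dose 30 the Acadl call was lost without control replicate 4 or dose replicate 1 or 4 (log2 values from 0.65 to 0.73) and the Acadvl call without dose replicate 2 (0.55), and at dose 62.5 the Acadvl call was lost without any 1 of 7 libraries (0.48 to 0.55). Within the first dam run no member passed at dose 30, with log2 values from 0.50 to 1.34, and within the second 2 passed, with values from 0.79 to 1.12.

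Over all doses, the slope on log2(dose + 1) gave a second view of the same libraries. In maternal PFO5DoA liver all 5 members had a rising slope, against 20.7% of genes, from 0.12 ± 0.04 (SE) for Acadvl to 0.40 ± 0.05 for Hadhb (edgeR adjusted p = 0.0120 and 2.6e-07). In fetal PFO5DoA liver 3 did, against 17.9%: Acadl (0.29 ± 0.05), Acadvl (0.18 ± 0.06) and Hadha (0.31 ± 0.05). The slopes of Acadm and Hadhb there were 0.11 ± 0.11 and 0.11 ± 0.05 (adjusted p = 0.478 and 0.132). With the dam run as a covariate the fetal slope of Acadm was 0.24 ± 0.11 (adjusted p = 0.114), and the maternal slope of Acadvl 0.20 ± 0.04 (adjusted p = 0.000229). Without the dose 30 group, an alternative added after the values were seen, the fetal slope of Acadm was 0.40 ± 0.13 (adjusted p = 0.0334). For PFO4DA the count was 4 against 2.27% in maternal liver, from 0.10 ± 0.02 for Acadl to 0.16 ± 0.03 for Acadm, and 5 against 8.94% in fetal liver, where Acadm had the steepest slope of the members at 0.25 ± 0.03 (adjusted p = 3.3e-08). Without the dose 62.5 group none of the 5 maternal PFO4DA slopes passed. The slope was then 0.09 ± 0.03 for Acadl (adjusted p = 0.141) and 0.08 ± 0.02 for Hadha (adjusted p = 0.155), against 0.10 and 0.13 with the group, and 0.06 for both Acadm and Hadhb, against 0.16 and 0.15.

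To compare the chemicals at their 5 common doses, the test took the difference of the PFO5DoA and PFO4DA log2 fold changes, each from its own controls. PFO5DoA is the longer homologue. In maternal liver Acadm, Acadl, Hadha and Hadhb responded more to PFO5DoA at doses 3, 10 and 30. At dose 3 the difference was 1.25 ± 0.25 (SE) for Acadm, 1.22 ± 0.24 for Acadl, 1.28 ± 0.19 for Hadha and 1.85 ± 0.31 for Hadhb (edgeR adjusted p = 0.00242, 0.00243, 1.5e-05 and 0.000146). At dose 10 it was 1.87 ± 0.25, 1.29 ± 0.24, 1.45 ± 0.19 and 1.68 ± 0.31 for the same genes, and at dose 30 it was 0.90 ± 0.24, 0.94 ± 0.24, 1.20 ± 0.19 and 1.47 ± 0.31 (adjusted p of at most 0.00707). Acadvl gave 0.48, 0.67 and 0.24 at these doses, with 95% intervals of -0.07 to 1.02, 0.13 to 1.21 and -0.30 to 0.78, and did not pass. At dose 10, for instance, the 4 maternal Acadm libraries on PFO5DoA were at 814 to 1196 CPM and those on PFO4DA at 270.4 to 343 CPM, the latter inside the range of their own controls.

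Of 10800 genes tested in maternal liver, 0% responded more to PFO5DoA at dose 0.3, 0.12% at 1, 0.611% at 3, 3.71% at 10 and 9.23% at dose 30. Beside these, the members counted 0, 0, 4, 4 and 4 of 5. At dose 0.3 no member had an unadjusted p under 0.05, 4 did at dose 1, and DESeq2 called none at either dose. Leaving out each library in turn kept all 4 calls at doses 3, 10 and 30.

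**Figure D3:**
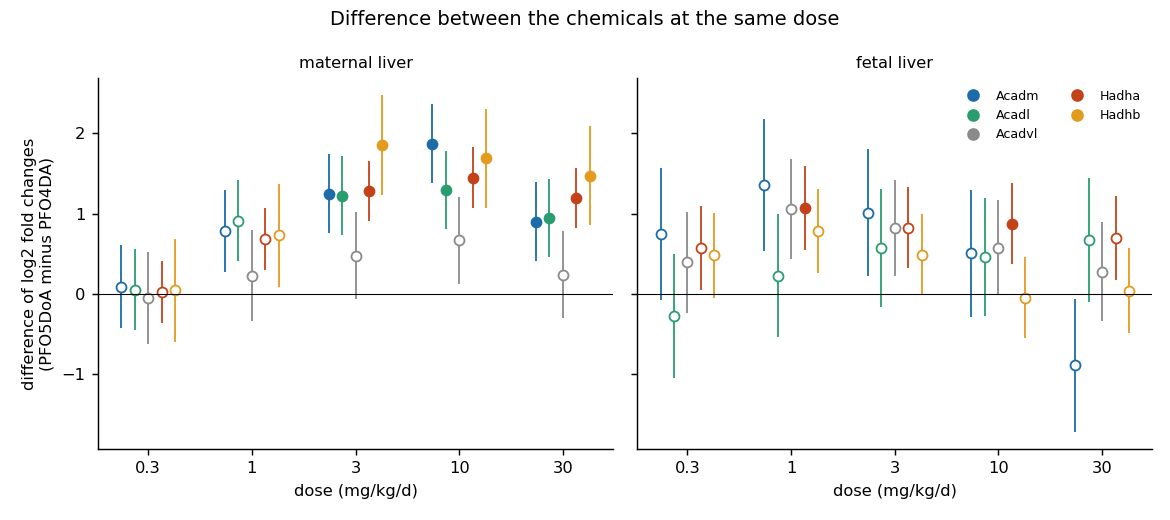
Difference of log2 fold changes, PFO5DoA minus PFO4DA, for the 5 genes at each shared dose (mg/kg/d) in maternal (left) and fetal liver (right); points are edgeR estimates, vertical lines 95% intervals, and filled points have an adjusted p under 0.05. Maternal Acadm, Acadl, Hadha and Hadhb are filled at 3, 10 and 30 mg/kg/d, and fetal Hadha at 1 and 10 mg/kg/d.

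In fetal liver the difference between the chemicals was past the threshold for Hadha alone, at dose 1 (1.06 ± 0.26 SE, edgeR adjusted p = 0.0357) and at dose 10 (0.87 ± 0.25, adjusted p = 0.0376). Fetal Hadha on PFO5DoA was at 1022 to 1281 CPM at dose 1 and 1223 to 1877 at dose 10, and on PFO4DA at 535 to 767 and 694 to 1048. Each of these calls was lost without any 1 of 10 libraries, with log2 differences of 0.97 to 1.07 and 0.74 to 0.87. The difference in Acadm changed sign along the dose range, from 1.35 ± 0.41 at dose 1 (adjusted p = 0.112) to -0.89 ± 0.41 at dose 30 (95% interval -1.72 to -0.06, adjusted p = 0.158), and neither value passed. Hadhb at doses 10 and 30 gave -0.05 and 0.04, with intervals of -0.55 to 0.45 and -0.49 to 0.57. The background of 11699 genes was 0.00855% at dose 0.3, 0.573% at 1, 0.744% at 3, 1.38% at 10 and 5.24% at dose 30, beside 0, 1, 0, 1 and 0 members. At doses 0.3, 3 and 30, 1, 3 and 2 members had an unadjusted p under 0.05, and DESeq2 called 0, 1 and 0.

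Whether mother and fetus responded differently was tested as the maternal minus the fetal log2 fold change, with the dam as a block. For PFO5DoA the difference was past the threshold in Hadhb, at dose 10 (1.02 ± 0.23 SE, edgeR adjusted p = 0.0089) and at dose 30 (1.01 ± 0.25, adjusted p = 0.00688). At dose 30 Hadhb was 3.70-fold its control in the dams and 1.80-fold in the fetuses, and the higher control level lay in the fetus. All dose 30 dams belong to the second dam run. Fetal Hadhb controls were at 299 and 348 CPM in that run and at 439 to 506 in the first. Maternal Hadhb controls were at 86.5 and 109 CPM in the second run and at 82.5 to 87.3 in the first. The dam run was not fitted in this test, and how far it shapes the difference was not tested. Hadha differed by 0.08 (95% interval -0.37 to 0.54) at 10 and -0.06 (-0.56 to 0.43) at dose 30. Acadm went from -1.04 ± 0.41 at dose 1 (adjusted p = 0.260) to 0.78 ± 0.41 at dose 30 (adjusted p = 0.20), and Acadvl was at -0.81 ± 0.26 at dose 3 (adjusted p = 0.132), none of them past the threshold. Among 11865 genes 0% had the larger maternal rise at dose 0.3, 0.00843% at 1, 0.48% at 3, 2.49% at 10 and 7.65% at dose 30. No member passed at doses 0.3, 1 or 3 with edgeR or DESeq2, and 0, 4 and 2 had an unadjusted p under 0.05.

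For PFO4DA no member passed this test at any dose with edgeR. The largest difference was that of Acadm at dose 10, -1.02 ± 0.29 SE (95% interval -1.60 to -0.43, adjusted p = 0.092), where maternal Acadm was at 270.4 to 343 CPM against controls from 248 to 428, and fetal Acadm at 467 to 707 CPM against controls from 245 to 487. DESeq2 placed that difference past the threshold (adjusted p = 0.0347). From 0.3 to 62.5 mg/kg/d, 0, 0, 3, 3, 2 and 0 members had an unadjusted p under 0.05, and DESeq2 called 0, 0, 0, 1, 0 and 0. Of 11587 genes, 0% at 0.3, at 1 and at dose 3 had a larger maternal rise, 0.112% at 10, 0.483% at 30 and 1.87% at dose 62.5. In the direction of the Acadm difference, a larger fetal rise, edgeR called 0.362% at dose 10.

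The unequal course of the 2 trifunctional protein subunits can be read within each fetal library, where scaling cancels. The log2 ratio of Hadhb to Hadha probe counts was -0.28 ± 0.16 (SD, n = 5) in fetal PFO5DoA controls, -0.34 ± 0.02 (SD, n = 3) at dose 1, -0.53 ± 0.22 (SD, n = 4) at 3, -1.01 ± 0.20 (SD, n = 4) at 10 and -1.14 ± 0.12 (SD, n = 3) at dose 30. All 7 libraries at the last 2 doses lay below every control, whose lowest value was -0.52. In maternal liver the ratio was -1.43 ± 0.21 (SD, n = 5) in the controls and -1.23 ± 0.12 (SD, n = 4) at dose 30, and none of those 4 libraries lay below the controls. In fetal PFO4DA liver it was -0.46 ± 0.24 (SD, n = 6) in the controls and -0.75 ± 0.13 (SD, n = 4) at dose 62.5, with 2 of 4 libraries below the controls. The log2 ratio of Acadm to Hadha in fetal PFO5DoA liver was -0.91 ± 0.35 (SD, n = 5) in the controls, -0.53 ± 0.07 (SD, n = 3) at dose 1 and -0.46 ± 0.24 (SD, n = 4) at dose 3, with 2 libraries above all controls at each of these doses. It was -1.12 ± 0.62 (SD, n = 4) at dose 10 and -2.16 ± 0.19 (SD, n = 3) at dose 30, where all 3 libraries lay below the controls. In fetal PFO4DA liver it was -0.80 ± 0.26 (SD, n = 6) in the controls and -0.44 ± 0.21 (SD, n = 4) at dose 62.5, with 2 of 4 libraries above all controls. In maternal PFO5DoA liver it was 0.34 ± 0.11 (SD, n = 5) in the controls and -0.03 ± 0.25 (SD, n = 4) at dose 30. All 4 of those libraries lay below the controls, but the highest, at 0.201, was close to the lowest control, at 0.208. These ratios were looked at after the fold changes were known and carry no test.

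**Figure D4:**
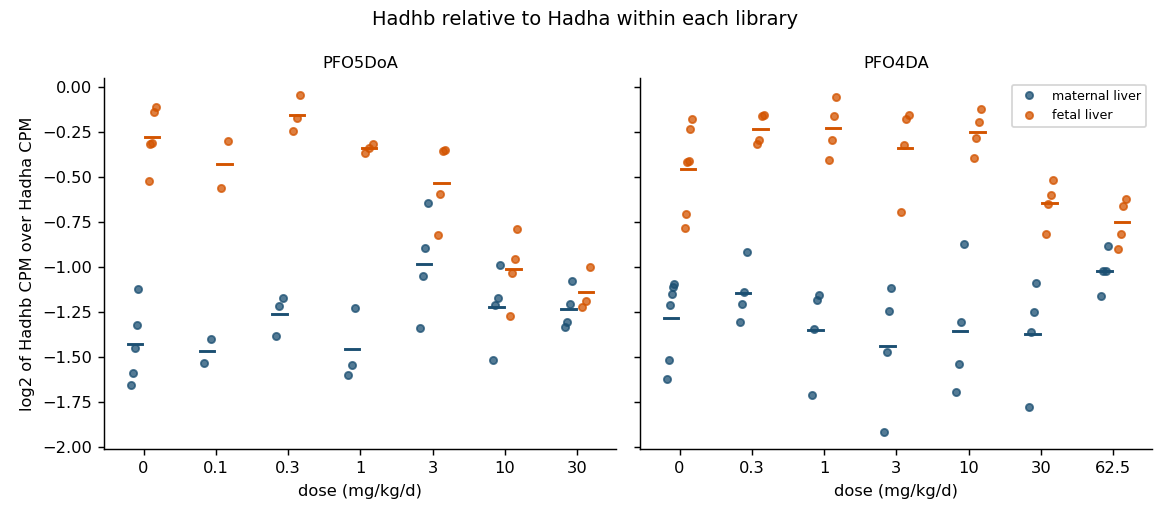
Log2 of Hadhb CPM over Hadha CPM in every library against dose (mg/kg/d), PFO5DoA left and PFO4DA right; points are libraries, bars group means, blue maternal and orange fetal liver. The fetal PFO5DoA means go from -0.28 in controls to -1.14 at 30 mg/kg/d, and the maternal means stay between -1.46 and -0.98.

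How alike the members' profiles were depended on the life stage. Over the 23 maternal PFO5DoA libraries, among 4974 genes with a mean of at least 10 CPM, the gene most correlated with Acadm was Hadhb (Pearson r = 0.96 of log2(CPM + 1)), the next was Hadha (r = 0.94), and the gene most correlated with Hadhb was Hadha (r = 0.96). For Hadha, Acadl and Acadvl no member was among the 3 nearest genes. Their nearest members stood at rank 9 (Hadhb), 13 (Hadha) and 17 (Acadl). The other nearest genes had identifiers with no name at hand and are not listed. Acadvl was the least alike, with r from 0.58 to 0.77 with the other members. Over the 22 fetal PFO5DoA libraries Acadl had the lowest r instead, at 0.25 with Acadm, 0.53 with Acadvl, 0.55 with Hadhb and 0.70 with Hadha. Hadha itself had r of 0.69 with Acadm, and Acadvl had r of 0.88 with Acadm, 0.89 with Hadha and 0.88 with Hadhb. In 30 fetal PFO4DA libraries Acadl had r from 0.17 to 0.46 with the other members, lowest with Acadm, whose nearest gene of all 5885 was Hadha (r = 0.97). The points share the dose groups and the libraries' depth, so these correlations describe the libraries and carry no test.

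The 2 dams on 0.1 mg/kg/d PFO5DoA, a group the study left out of its own tests, are given as values. In their fetal livers Hadha was at 858 and 1282 CPM, Hadhb at 697 and 868 and Acadm at 454 and 790.1, each above all 5 fetal controls. The share of all genes above the controls in these 2 libraries was not counted. At dose 0.3 fetal Hadha was lower, at 658, 724 and 754 CPM. Fetal Hadhb at that dose was at 554, 670 and 700.1 CPM and fetal Acadm at 291, 418 and 486, and both overlapped the dose 0.1 values. Fetal Acadl at dose 0.1 was at 380 and 572 CPM, within the control range. In the livers of the same 2 dams Hadha was at 220.1 and 270.4 CPM and Acadm at 263 and 298, inside the maternal control range. Their fetal columns had Pearson r of 0.874 and 0.861 with the maternal library used to assign the life stage. The 5 fetal controls had r from 0.872 to 0.901. The control with the lowest r, of dam 2264, had the highest control Acadm (429 CPM) and the lowest control Acadl (357 CPM). How far this bears on the dose 0.1 values was not tested.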

How the data were processed

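RNA of maternal and fetal rat liver was profiled by TempO-Seq, in which pairs of detector probes are ligated on the RNA and sequenced, here with 22253 probes for 20924 genes per the labels. The authors deposited estimated counts per gene, not normalized, in 1 table for each chemical. The submitters' processing notes name STAR 2.7.8a, the genome build mRatBN7.2, Partek Flow and DESeq2. Of the deposited values, 12.22% (PFO5DoA) and 11.76% (PFO4DA) were not whole numbers, and all were rounded before testing. A replicate is 1 dam; how many fetuses a fetal library holds is not given in the sources used here.

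The test was edgeR's quasi-likelihood F test (version 4.0.16, R 4.3.3) in its robust form, after filterByExpr and TMM scaling, with a fit for each chemical and life stage over all dose groups. The difference between chemicals was a contrast in 1 fit of both, and the maternal minus fetal response a contrast with the dam as a block (limma 3.58.1 supplies shared functions). P-values were adjusted by Benjamini-Hochberg over all genes tested, and a call means an adjusted p under 0.05. The doses of a chemical share their controls, so their results are not independent of one another. DESeq2 1.42.0, RLE scaling, no filter, each dose with its own controls, the dam run, summed livers and leaving out each library were alternatives. The dam run is the block of consecutive dam identifiers, and it was not fitted in the maternal minus fetal test. CPM is the TMM-scaled level. Overlap with controls was read for the members alone and not counted over all genes. The fit was also run on simulated counts with known fold changes. Those counts were drawn from the fit's own estimates of spread, with no dam run effect, so they cannot speak to the dam runs.

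The genes named are the 5 members and, for each, the 3 genes with the most similar profile where a name was at hand. Members and lists were chosen with earlier results of these data known. The planned pathway and marker lists were not used, since the identifiers could not be matched to names. The 0.1 mg/kg/d group entered no test.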

Additional observations from a re-analysis of the deposited data

Results flagged for a closer look

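In 4 of the 105 groups of 4 or more libraries examined (3.81%), 1 library stood apart from the others of its group, and chance alone places about 1 in 20 groups there. Maternal Acadvl at 30 mg/kg/d PFO5DoA was at 15.6 CPM in dam 2288, against 20.9 to 21.2 CPM in the other 3. Maternal Hadhb in the PFO5DoA controls was at 109 CPM in dam 2280, against 82.5 to 87.3 CPM. Fetal Hadhb at 10 mg/kg/d PFO5DoA was at 1084 CPM in the litter of dam 2283, against 599 to 655 CPM. The same fetal library was also the highest of its group for Acadl (2310.4 CPM), Acadvl (44.7 CPM) and Hadha (1877 CPM). Fetal Acadvl at 1 mg/kg/d PFO4DA was at 18.9 CPM in the litter of dam 2313, against 14.7 to 15.3 CPM.

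The response to PFO5DoA exceeded that to PFO4DA, by the edgeR test of the difference, for 4 maternal members at each of 3 doses. For Acadm the log2 difference was 1.25 at 3, 1.87 at 10 and 0.90 at 30 mg/kg/d. For Acadl it was 1.22, 1.29 and 0.94, for Hadha 1.28, 1.45 and 1.20, and for Hadhb 1.85, 1.68 and 1.47. In fetal liver the difference passed for Hadha, at 1.06 for 1 mg/kg/d and 0.87 for 10 mg/kg/d. The maternal response of Hadhb to PFO5DoA exceeded the fetal one, with log2 differences of 1.02 (dose 10) and 1.01 (dose 30), in a fit without the dam run.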

How the results depend on the processing

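No called value reversed under any alternative, and no member was called lower against its controls. Of 50 calls against controls, DESeq2 kept 50, RLE scaling 48 and no filter on low counts 46. Each dose with its own controls kept 38, and the dam run as a covariate 46. Summing both livers of a dam, which needs no life stage, kept 46. The same summed fit of a chemical was set beside its maternal and its fetal calls, so it cannot show which liver holds a rise. Keeping the 0.1 mg/kg/d dams kept 33 of 33, and keeping the deeper library of dam 2279, chosen after seeing the data, 15 of 15, and it added Hadhb at dose 1 (adjusted p = 0.0468) and Acadvl at dose 30 (adjusted p = 0.0345) in maternal liver. Run 1 alone kept 20 of 34 and run 2 alone 25 of 44, with fewer libraries, and all had the same sign. Pairs of libraries with the same replicate number had a median r of deviations between -0.03 and 0.04, and other pairs between -0.01 and 0.01. Same-number pairs were over 0.1 in 20 of 51, 14 of 48, 16 of 84 and 29 of 84. Other pairs over 0.1 were not counted, so these shares cannot decide whether replicate numbers pair the libraries. The replicate block kept 42 of 50 calls and 16 of 17 trend calls, all but fetal PFO5DoA Acadvl (0.16, adjusted p = 0.0533).

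The following counts of called members moved by over 1.5 times, with doses in mg/kg/d; moves of 1 member within that range are not listed. Counts for summed livers hold maternal and fetal liver together and are not a setting of either test alone. For maternal PFO5DoA at dose 1 (2 called), no filter and the dam run as a covariate gave 1, and own controls, the replicate block and run 1 alone gave 0. Summed livers gave 5 there, with Acadm at 1.16 log2, against 0.64 in maternal and 1.50 in fetal liver. Run 2 alone gave 2 of 4 at dose 3 and 3 of 5 at dose 10. For fetal PFO5DoA, own controls gave 2 of 4 at dose 1 and 3 of 5 at dose 10, and run 2 alone 2 of 5 at dose 3 and 3 of 5 at dose 10. For maternal PFO4DA, summed livers gave 1 rather than 0 at dose 10. At dose 30 (1 called) DESeq2 gave 2, summed livers 4, and RLE scaling, no filter, own controls, the dam run as a covariate, the replicate block and either run alone 0. For fetal PFO4DA at dose 10 (3 called), own controls, the replicate block and summed livers gave 1 and either run alone 0, and at dose 30 (5 called) the replicate block gave 3, run 1 alone 0 and run 2 alone 2. Between life stages for PFO4DA at dose 10, DESeq2 and no filter gave 1 rather than 0. Between chemicals in fetal liver, at dose 1 (1 called) DESeq2 gave 3 and the dam run as a covariate 0, at dose 3 DESeq2 gave 1 rather than 0, at dose 10 no filter gave 0 rather than 1, and at dose 30 the dam run as a covariate gave 1 rather than 0. The maternal PFO4DA trend went from 4 to 0 without its highest dose. The causes were not tested.

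Leaving out 1 library at a time kept 1176 of 1251 calls against controls, 664 of 684 between chemicals and 24 of 24 between life stages. The last was run for 12 PFO5DoA dams (control, doses 10 and 30) and 4 PFO4DA dams (dose 62.5) and not for the others. Counts ranged from 0 to 2 for maternal PFO5DoA at dose 1 and 4 to 5 at dose 30, from 2 to 4 for fetal PFO5DoA at dose 1 and 4 to 5 at dose 3, from 0 to 1 for maternal PFO4DA at dose 30 and 3 to 4 at dose 62.5, and from 1 to 4 for fetal PFO4DA at dose 10, 4 to 5 at dose 30 and 3 to 4 at dose 62.5. Between chemicals in fetal liver they ranged from 0 to 2 at dose 1 and from 0 to 1 at doses 3, 10 and 30. Acadvl had the fewest counts, and how far depth sets its error was not tested.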
